A study of Mus musculus with 9 samples.

Results

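Semaphorin, ephrin, netrin and Slit guidance genes were followed across the layers of the newborn mouse bladder. The set was chosen by name alone, as every gene of the platform annotation called Sema, Plxn, Epha, Ephb, Efna, Efnb, Slit, Robo, Ntn or Unc5 with the code of a family member, together with Nrp1, Nrp2 and Dcc. It held 70 genes, 37 for ligands and 33 for receptors, of 18193 genes named on the array. The gene Unc50 shares only its first letters with the Unc5 receptors and was left out, and Ephb2 was not analysed here. The arrays measured detrusor, the smooth muscle coat, stroma, the connective tissue, and urothelium, the lining epithelium, each cut from frozen sections by laser capture, with 3 arrays per layer. All 9 samples came from FVB/N mice carrying an SMGA/EGFP transgene, a smooth muscle gamma actin (Actg2) and green fluorescent protein reporter, so there was no group without the transgene. The mice were at postnatal day 1 (detrusor 1 and 2, stroma 1, urothelium 2) or day 2 (detrusor 3, stroma 2 and 3, urothelium 1 and 3), and their sex is given as unknown. The labels state that samples were not pooled and name no animal, so the spread between arrays of a layer may be partly technical, and p-values would be too small if arrays share an animal.

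These genes encode short-range and secreted cues that steer growing axons, vessels and migrating cells. Semaphorins act through plexins, the secreted class 3 members mostly with neuropilins as co-receptors. Ephrins are tethered to the cell surface and signal on contact through Eph receptor tyrosine kinases, and the ephrin-bearing cell can itself respond. Slits repel through Robo receptors, and netrins attract through Dcc or repel through Unc5 receptors. In epithelia, several Eph and semaphorin genes also take part in cell sorting and contact between cells.

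Of the 70 genes, 60 passed a filter on dim probe sets, the oligonucleotide groups that report a transcript, and were tested. Levels are log2(intensity + 39.31), so that fold changes of low genes are understated, and levels of different genes are not compared, since each probe set has its own brightness. In tissue of this kind fewer cells of a type and less RNA per cell cannot be told apart. The layer labels were checked on marker genes. The summed intensity of 8 urothelial markers ran from 2836 to 3689 in detrusor, 13839 to 163644 in stroma and 181153 to 261843 in urothelium, and against detrusor all 8 were called higher in urothelium. That of 6 smooth muscle markers ran from 258293 to 374395 in detrusor, 48681 to 156626 in stroma and 19514 to 257727 in urothelium. Of these 6, 4 were called lower in urothelium than in detrusor, and Actg2 and Acta2 were not called. Between detrusor and stroma 1 of the 6 was called, Smtn, higher in detrusor. Between urothelium and stroma 0 markers of either list were called. Some arrays carried markers of a neighbouring layer. The median log2 level of the smooth muscle markers was 14.44 in urothelium 3 against 9.33 and 8.27 in urothelium 1 and 2, and that of the urothelial markers was 12.44 and 13.15 in stroma 1 and 3 against 9.36 in stroma 2. For genes named by the rule given under the processing, leaving out stroma 3 and urothelium 3 was followed gene by gene. Where it changed the call of such a gene or moved a called fold by over 1.5 times, the value is given beside it. Other genes mentioned here were not followed in this way, and not every gene newly called in that fit is named.

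Between urothelium and detrusor, guidance genes were called in both directions. Of the 60 tested, 15 were called by limma (adjusted p under 0.05 over all 13064 genes), 10 higher and 5 lower in urothelium. Over all genes 16.4% were called, 8.37% higher and 8.05% lower. The 15 comprised 9 ligands, 7 higher and 2 lower, and 6 receptors, 3 higher and 3 lower. Arrays of urothelium and detrusor did not overlap for any of the 15, and 27 of the 60 tested genes had no overlap, against 39.3% of all genes. At an unadjusted p under 0.05 there were 24 members, 40%, against 29.5% of all genes. Without stroma 3 and urothelium 3 the count was 17, of which 14 were among the 15, with 14.4% of all genes called. Without detrusor 3 it was 9, with 8.97% of all genes called. The median difference over the tested members was -0.47 against -0.01 over all genes.

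**Figure D1:**
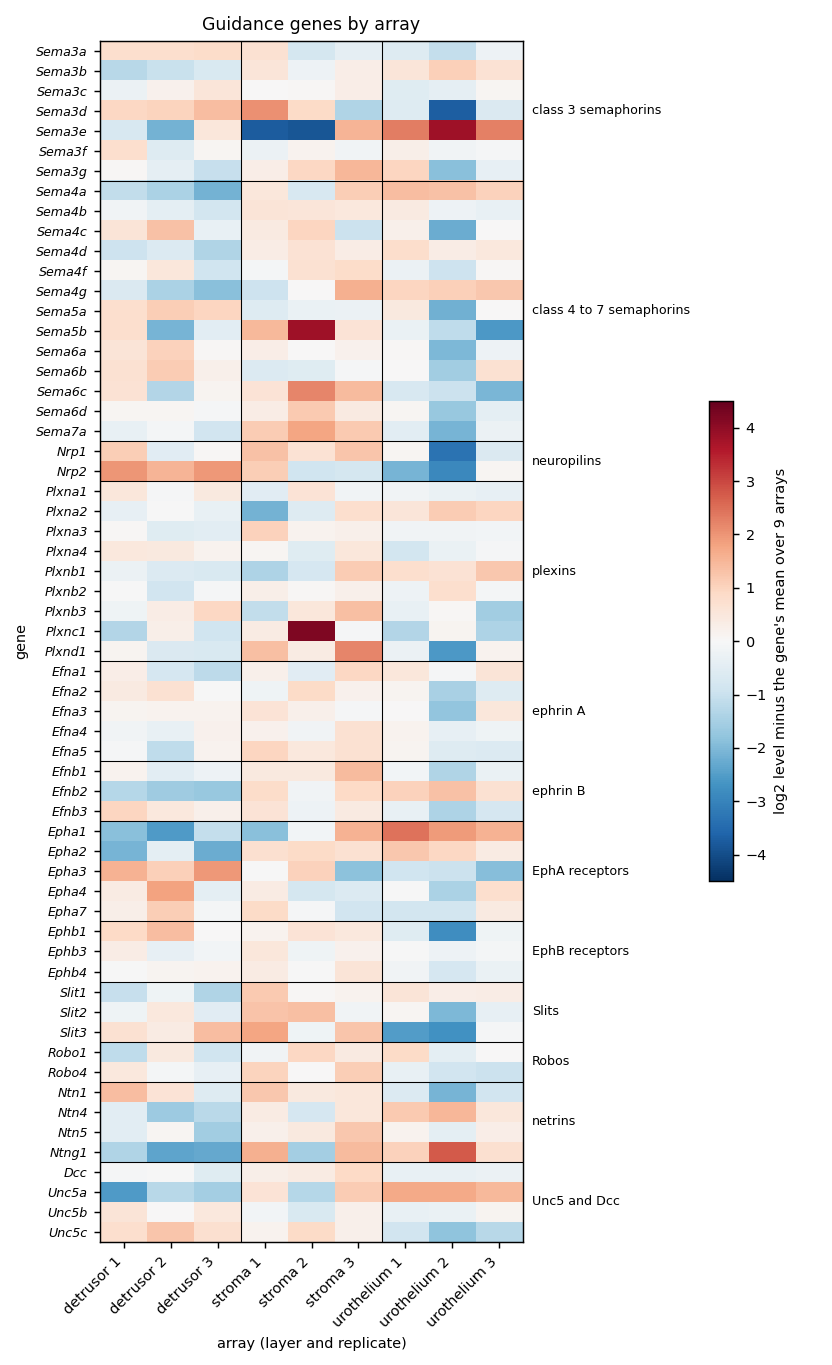
Log2 level of each of the 60 tested guidance genes (rows, grouped by class) on each of the 9 arrays (columns), shown as the difference from the gene's own mean over the arrays (colour, log2 units). Called genes such as Efnb2 and Sema4a are blue in detrusor and red in urothelium, and Plxnc1 and Sema5b are highest in stroma 2.

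**Figure D2:**
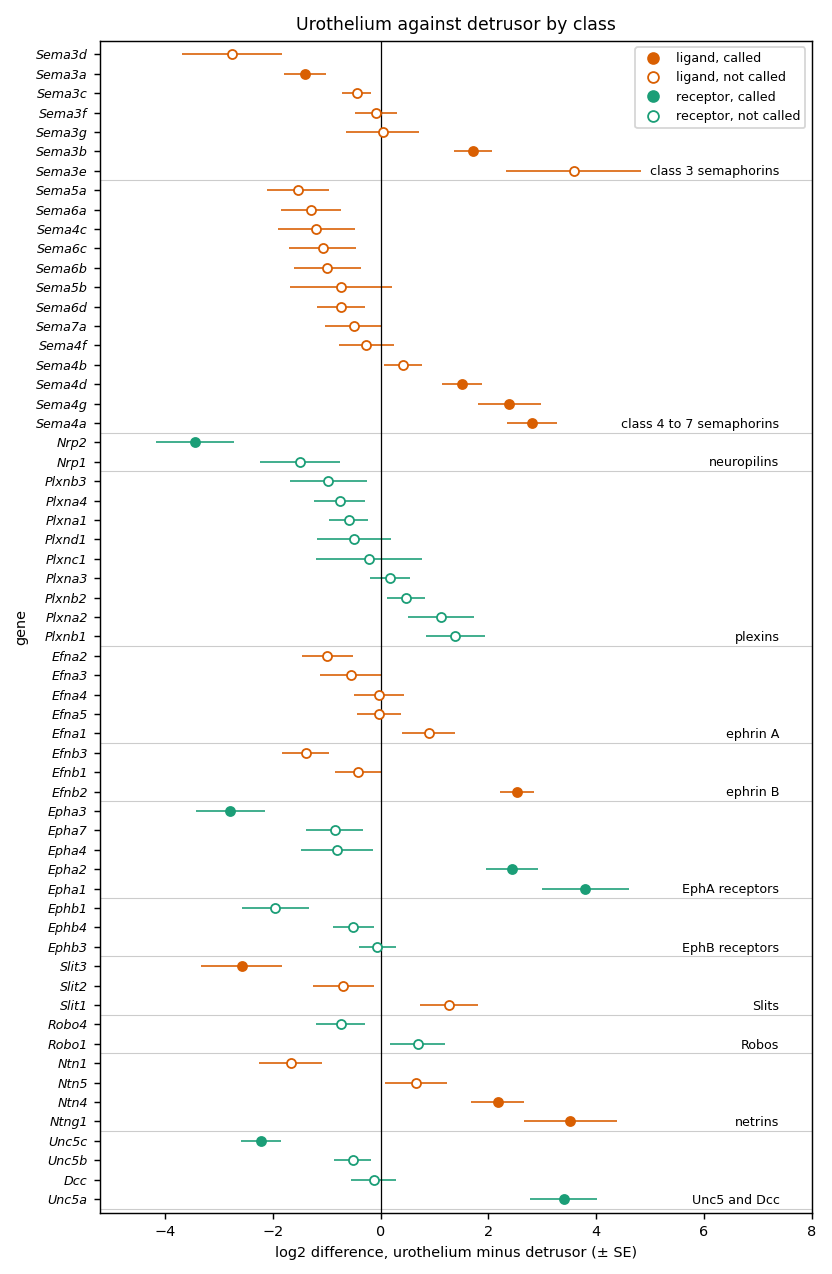
Log2 difference of each tested gene between urothelium and detrusor (horizontal axis, points with SE, n = 3 per layer), by class (vertical axis), ligands in orange and receptors in green, filled where the adjusted p was under 0.05. Called genes lie on both sides of 0, 10 to the right and 5 to the left.

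Among the secreted class 3 semaphorins, the called members went opposite ways. Sema3a, which collapses growth cones through neuropilin 1 and A-type plexins, had log2 levels of 12.86, 12.87 and 12.94 in detrusor, 12.77, 11.32 and 11.70 in stroma and 11.53, 11.03 and 11.87 in urothelium. All detrusor arrays lay above the other 6, stroma 1 by little. The Sema3a level was 2.66-fold lower in urothelium than in detrusor (log2 -1.41 ± 0.39, SE, n = 3 per layer, adjusted p = 0.032 by limma). This call was lost in 8 of 19 alternative settings, among them the mean of its probe sets. Another Sema3a probe set gave -1.75 for urothelium minus detrusor. For detrusor minus stroma it gave 3.02 against 0.95, and for urothelium minus stroma 1.27 against -0.46, the opposite sign. Sema3b, a secreted relative that also binds neuropilins, stood at 9.15, 9.39 and 9.71 in detrusor, 10.92, 10.16 and 10.68 in stroma and 10.94, 11.44 and 11.04 in urothelium. Its 3 layers did not overlap, with detrusor lowest. It was 3.29-fold higher in urothelium than in detrusor (log2 1.72 ± 0.35, adjusted p = 0.00808).

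Sema3e, which binds plexin D1 without a neuropilin and is known for guiding vessels, had the widest range of the class. Its log2 levels were 11.67, 13.20 and 11.66 in urothelium, 8.65, 7.26 and 9.87 in detrusor and 5.64, 5.54 and 10.90 in stroma. Every urothelium array was above every other array, and stroma 3 was far above stroma 1 and 2. With all arrays the difference was 4.82 ± 1.25 against stroma (adjusted p = 0.0788) and 3.58 ± 1.25 against detrusor (adjusted p = 0.0781), neither of them called. Without stroma 3 and urothelium 3 both were called, at 6.84 ± 0.86 (adjusted p = 0.0114) and 3.84 ± 0.79 (adjusted p = 0.0115). The urothelial marker medians of stroma 1, 2 and 3 were 12.44, 9.36 and 13.15, and their part in the Sema3e levels was not tested. Both low stroma arrays had intensities well below the pseudocount, and the difference from stroma was 3.28 with the median pseudocount and 5.82 with the 5th percentile, neither called, while that from detrusor was called with the median pseudocount (2.98, adjusted p = 0.0246). The values are those of the brightest of 4 Sema3e probe sets. The other 3 gave 1.42 to 3.10 for urothelium minus stroma and 3.11 to 4.43 for urothelium minus detrusor, and for detrusor minus stroma they had the opposite sign, -1.93 to -0.36 against 1.23. The other class 3 genes, Sema3c, Sema3d, Sema3f and Sema3g, were not called, with differences between urothelium and detrusor from -2.75 (Sema3d) to 0.04 (Sema3g).

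Of the 13 semaphorins of classes 4 to 7, which are anchored in the membrane, 3 of class 4 had higher calls in urothelium against detrusor and 0 had lower ones. Sema4a, a transmembrane ligand, was at 9.93, 9.62 and 8.91 in detrusor, 11.54, 10.30 and 12.13 in stroma and 12.43, 12.37 and 12.08 in urothelium. Detrusor arrays were all below the rest, and urothelium 3 was just below stroma 3. Its level was 6.99-fold higher in urothelium than in detrusor (log2 2.81 ± 0.47, adjusted p = 0.0031), and 11.2-fold with the mean of its probe sets. Sema4d, the ligand of plexin B1, was at 8.48, 8.78 and 8.04 in detrusor, 9.75, 10.06 and 9.75 in stroma and 10.20, 9.75 and 9.87 in urothelium. Stroma and urothelium overlapped for Sema4d and both lay above detrusor, with a difference of 1.51 ± 0.37 between urothelium and detrusor (adjusted p = 0.0194, and adjusted p = 0.0568 without stroma 3 and urothelium 3). Sema4g was at 9.64, 8.86 and 8.39 in detrusor, 9.34, 10.30 and 11.87 in stroma and 11.25, 11.34 and 11.48 in urothelium. Stroma 3 was the highest array of all for Sema4g, and the difference between urothelium and detrusor was 2.39 ± 0.58 (adjusted p = 0.018). The Sema4g call was lost without detrusor 2, detrusor 3 or urothelium 2 (adjusted p up to 0.0804).

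Several class 5 to 7 semaphorins were lower in urothelium 2 than elsewhere, and none was called in any layer comparison. Urothelium 2 was also the array with the lowest median intensity (133.3), and the part of this in its low levels was not tested. Sema5a, which carries thrombospondin repeats, was at 11.10, 11.46 and 11.31 in detrusor, 9.77, 10.04 and 10.06 in stroma and 10.76, 8.17 and 10.35 in urothelium. Detrusor arrays were all above the others for Sema5a (urothelium minus detrusor -1.53 ± 0.58, adjusted p = 0.102). Sema5b was at 9.68, 12.03 and 8.86 in stroma, 8.97, 6.12 and 7.74 in detrusor and 7.92, 7.09 and 5.64 in urothelium. It was thus high mainly in stroma 2, with a difference of -3.31 ± 0.95 between urothelium and stroma (adjusted p = 0.0995). Among Sema6a to Sema6d the differences between urothelium and detrusor ran from -1.29 to -0.73.

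Of the neuropilins, co-receptors shared by class 3 semaphorins and vascular growth factors, Nrp2 was called and Nrp1 was not. Nrp2, the co-receptor for Sema3f, was at 14.21, 13.75 and 14.18 in detrusor, 13.33, 11.35 and 11.45 in stroma and 10.15, 9.33 and 12.33 in urothelium. Detrusor was above all other arrays, and urothelium 3, which carried smooth muscle markers, was the highest urothelium array. The Nrp2 level was 10.9-fold lower in urothelium than in detrusor (log2 -3.44 ± 0.72, adjusted p = 0.00868). Without stroma 3 and urothelium 3 it was 19.7-fold lower (-4.30 ± 0.56, adjusted p = 0.00141), and without urothelium 2 it was 6.96-fold lower. Its difference of 2.00 ± 0.72 between detrusor and stroma was not called (adjusted p = 0.13), and its other probe sets gave 1.33 to 3.12. All 4 Nrp2 probe sets were lower in urothelium than in detrusor, with differences from -4.02 to -0.88. Nrp1, the co-receptor for Sema3a, was at 13.95, 12.35 and 12.92 in detrusor, 14.16, 13.49 and 14.10 in stroma and 12.95, 9.54 and 12.21 in urothelium. Urothelium 2 stood apart from the other 8 arrays for Nrp1. No Nrp1 difference was called, the largest being urothelium minus stroma at -2.35 ± 0.74 (adjusted p = 0.121), and of its 4 probe sets 1 went the other way between urothelium and detrusor, at 1.17.

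None of the 9 plexins, the signalling receptors for semaphorins, was called in any layer comparison. Plxnd1, the Sema3e receptor of endothelial cells, was at 11.99, 10.99 and 12.81 in stroma, 10.76, 9.96 and 9.92 in detrusor and 10.35, 8.04 and 10.77 in urothelium. Stroma arrays were all above the rest for Plxnd1, and the differences of stroma were 1.72 over detrusor and 2.21 over urothelium (SE 0.69, adjusted p = 0.171 and 0.121 by limma). Plxnc1, the Sema7a receptor, reached 13.19 in stroma 2 and lay between 7.61 and 9.37 on the other 8 arrays. Plxnb1, the Sema4d receptor, was at 12.08, 11.98 and 12.54 in urothelium, 11.06, 10.71 and 10.66 in detrusor and 9.94, 10.57 and 12.46 in stroma. Its urothelium arrays were above every detrusor array, and stroma 3 was within the urothelial range (urothelium minus detrusor 1.39 ± 0.55, adjusted p = 0.117).

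Ephrin B2, a transmembrane ligand best known from arteries where it faces EphB4 of veins, was the member with the smallest adjusted p. Efnb2 was at 12.03, 11.73 and 11.63 in detrusor, 14.13, 13.17 and 14.20 in stroma and 14.36, 14.62 and 14.00 in urothelium. Detrusor lay below all other arrays, and stroma and urothelium overlapped. It was 5.77-fold higher in urothelium than in detrusor (log2 2.53 ± 0.32, adjusted p = 0.00113) and 4.10-fold lower in detrusor than in stroma (log2 -2.04 ± 0.32, adjusted p = 0.00851). Without stroma 3 and urothelium 3 both calls remained, and without detrusor 3 the call against stroma was lost (adjusted p = 0.053). Its difference between urothelium and stroma was 0.49 ± 0.32 (adjusted p = 0.451). Ephb4, the receptor, differed by -0.51 ± 0.38 between urothelium and detrusor and was not called.

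The other ephrins were not called. Efnb3 was at 8.92, 7.87 and 8.52 in urothelium, 10.23, 9.75 and 9.48 in detrusor and 9.88, 9.04 and 9.66 in stroma. Urothelium lay below both other layers for Efnb3 (urothelium minus detrusor -1.39 ± 0.44, adjusted p = 0.0542). Efna5, a lipid-anchored ligand, was at 11.64, 11.14 and 11.38 in stroma, above 10.63, 9.55 and 10.85 in detrusor and 10.80, 10.09 and 10.06 in urothelium. Its differences from stroma were -1.04 ± 0.41 for detrusor and -1.07 ± 0.41 for urothelium (adjusted p = 0.166 and 0.193 by limma).

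The EphA receptors were called in opposite directions. Epha1, an epithelial Eph receptor, was at 6.15, 5.50 and 6.98 in detrusor, 6.15, 7.93 and 9.62 in stroma and 10.49, 9.94 and 9.61 in urothelium. Detrusor was low on every array, and stroma 3 reached the lowest urothelial level. The Epha1 level was 14.0-fold higher in urothelium than in detrusor (log2 3.80 ± 0.80, adjusted p = 0.00871). Its detrusor intensities were low against the pseudocount, so the size depends on it, at 4.53-fold with the median pseudocount and 26.7-fold with the 5th percentile, both called. With the mean of its probe sets it was 6.82-fold. Epha2, the receptor for ephrin A1 at epithelial junctions, was at 7.93, 9.58 and 7.81 in detrusor, 10.76, 10.89 and 10.73 in stroma and 11.25, 10.95 and 10.42 in urothelium. Detrusor again lay below all other arrays, with Epha2 5.41-fold higher in urothelium (log2 2.44 ± 0.49, adjusted p = 0.00706) and 5.13-fold lower in detrusor than in stroma (log2 -2.36 ± 0.49, adjusted p = 0.022). When stroma 3 and urothelium 3 were left out, the difference of Epha2 from stroma was -2.39 ± 0.58 (adjusted p = 0.0624) and no longer called. Epha3, a receptor for ephrin A5, was at 12.64, 12.14 and 13.03 in detrusor, 11.04, 12.12 and 9.22 in stroma and 10.19, 10.11 and 9.14 in urothelium. Detrusor was highest, by little over stroma 2, and Epha3 was 6.91-fold lower in urothelium than in detrusor (log2 -2.79 ± 0.64, adjusted p = 0.0131). The call was lost without detrusor 3 (adjusted p = 0.0621).

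Of the EphB receptors, Ephb1 was at 9.79, 7.52 and 10.13 in urothelium, 11.21, 11.73 and 10.35 in detrusor and 10.49, 10.94 and 10.79 in stroma. Urothelium was below all other arrays, with a difference from detrusor of -1.95 ± 0.63 (adjusted p = 0.06). Without stroma 3 and urothelium 3 it was called (-2.44 ± 0.69, adjusted p = 0.0457). Ephb3 and Ephb4 differed by less than 1 log2 unit in every layer comparison.

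Slit3, a secreted ligand of Robo receptors, was at 8.95, 8.65 and 9.67 in detrusor, 10.05, 8.10 and 9.54 in stroma and 5.77, 5.55 and 8.21 in urothelium. Urothelium 1 and 2 lay near the bottom of the scale, and urothelium 3, with its smooth muscle markers, reached the lowest stroma array. Slit3 was 5.98-fold lower in urothelium than in detrusor (log2 -2.58 ± 0.76, adjusted p = 0.0419), a call lost in 9 of 18 alternatives. The Slit3 fold was 2.41 with the median pseudocount, where it was not called (adjusted p = 0.0627), and 11.2 with the 5th percentile. Without stroma 3 and urothelium 3 it was 10.8-fold (-3.43 ± 0.68, adjusted p = 0.0101), and it was then also called lower in urothelium than in stroma (-3.42 ± 0.75, adjusted p = 0.0449). Slit2 was at 12.82, 13.46 and 12.50 in detrusor, 14.28, 14.36 and 12.85 in stroma and 13.10, 10.97 and 12.64 in urothelium, with all layers overlapping. Slit1 had all detrusor arrays, from 6.42 to 7.60, below the other 6, from 7.84 to 8.95, and was not called (urothelium minus detrusor 1.27 ± 0.53, adjusted p = 0.136). Of the Robo receptors, Robo1 and Robo4 were tested and not called. The endothelial receptor gene Robo4 was at 10.02, 9.02 and 10.12 in stroma, 9.50, 8.94 and 8.66 in detrusor and 8.68, 8.17 and 8.05 in urothelium, which lay below all stroma arrays (urothelium minus stroma -1.42 ± 0.45, adjusted p = 0.125).

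Among the netrins, Ntn4 and Ntng1 exceeded their detrusor levels in urothelium. Ntn4, a laminin-binding netrin of basement membranes, was at 8.64, 7.50 and 7.91 in detrusor, 9.47, 8.37 and 9.63 in stroma and 10.29, 10.62 and 9.63 in urothelium. Urothelium was the highest layer, with urothelium 3 level with stroma 3, and its excess over detrusor was 4.49-fold (log2 2.17 ± 0.50, adjusted p = 0.0138). It was 2.97-fold with the median pseudocount, and the Ntn4 call was lost without detrusor 2, detrusor 3 or urothelium 2 (adjusted p up to 0.0597). Ntng1, for netrin G1, a lipid-anchored protein that does not act through Dcc or Unc5, was at 6.65, 5.64 and 5.70 in detrusor, 9.59, 6.47 and 9.43 in stroma and 9.04, 10.78 and 8.74 in urothelium. Stroma 1 and 3 were at urothelial levels and stroma 2 at the detrusor level, and Ntng1 was 11.5-fold higher in urothelium than in detrusor (log2 3.52 ± 0.86, adjusted p = 0.0181). With the other pseudocounts the Ntng1 fold was 3.68 (median) and 23.1 (5th percentile), and the call was lost without detrusor 2, detrusor 3 or urothelium 2 (adjusted p up to 0.0794, at 7.41-fold without urothelium 2). Ntn1, the classical secreted netrin, went the other way, at 8.36, 6.86 and 8.09 in urothelium, 10.37, 9.58 and 8.38 in detrusor and 10.16, 9.41 and 9.47 in stroma. Urothelium was below all other arrays for Ntn1, detrusor 3 by little, and the difference from detrusor was not called (-1.67 ± 0.59, adjusted p = 0.0817).

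The Unc5 netrin receptors divided between the layers. Unc5a was at 6.57, 7.89 and 7.60 in detrusor, 9.75, 7.85 and 10.28 in stroma and 10.83, 10.84 and 10.60 in urothelium. Urothelium was above all other arrays and its arrays were close to each other, and Unc5a was 10.6-fold higher there than in detrusor (log2 3.40 ± 0.62, adjusted p = 0.00444, and 5.28-fold with the median pseudocount). Unc5c was at 11.85, 12.37 and 11.82 in detrusor, 11.26, 11.96 and 11.34 in stroma and 10.24, 9.28 and 9.85 in urothelium. Urothelium was below all other arrays, and Unc5c was 4.67-fold lower there than in detrusor (log2 -2.22 ± 0.37, adjusted p = 0.00285) and lower than in stroma by a difference that was not called (-1.73 ± 0.37, adjusted p = 0.0572). Unc5b and Dcc differed by less than 1 log2 unit in every layer comparison.

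**Figure D3:**
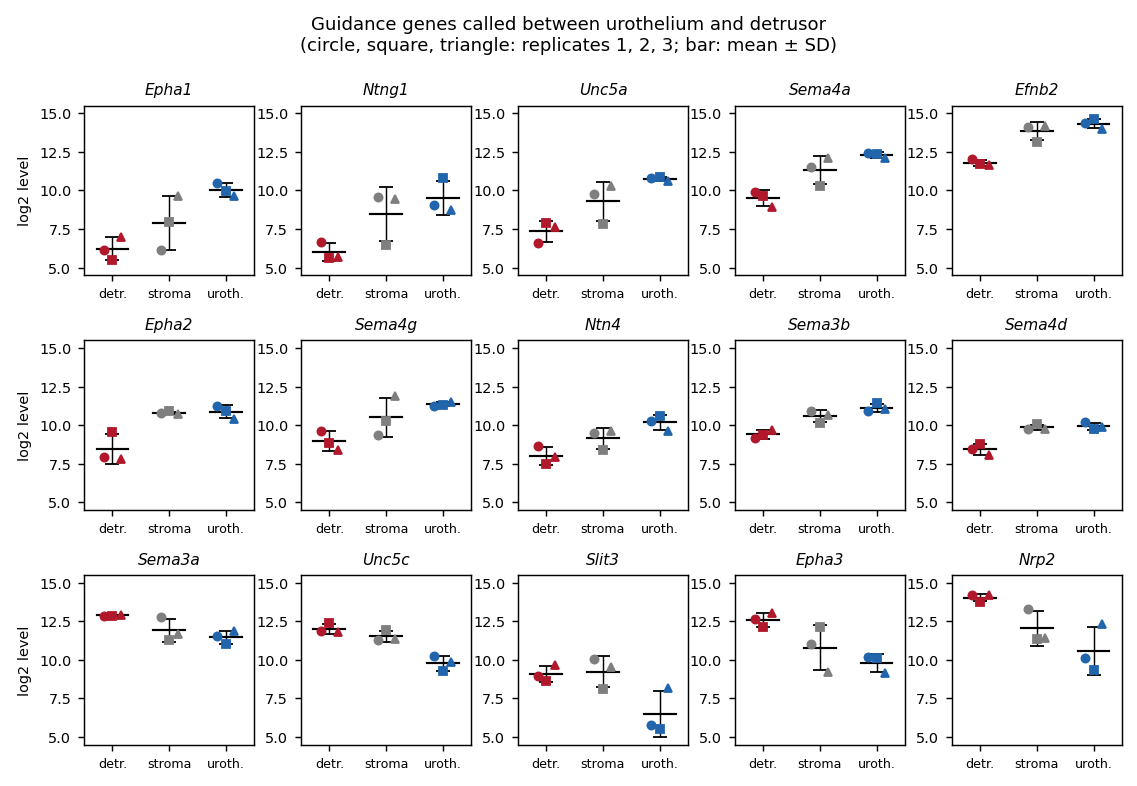
Log2 levels (vertical axis, log2(intensity + 39.31)) of the 15 guidance genes called between urothelium and detrusor, by layer (horizontal axis), 1 point per array, with the mean and SD (n = 3). The panels run from Epha1, 3.80 log2 units higher in urothelium, to Nrp2, with a difference of -3.44, and urothelium and detrusor points do not overlap in any panel.

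Markers of other cell types also differed between these layers. Of 4 skeletal muscle markers, all 4 were called lower in urothelium than in detrusor, with summed intensities of 101478 to 105987 in detrusor, 893 to 9277 in stroma and 89 to 31538 in urothelium. Of 4 pericyte markers, 3 were lower and 1 (Rgs5) higher in urothelium. The sum ran from 23948 to 35927 in detrusor, 11389 to 41697 in stroma and 54955 to 62791 in urothelium. In urothelium the pericyte sum rests mainly on Rgs5, at 15.65, 15.87 and 15.83. The median log2 level of the 4 markers went the other way, at 12.73 to 12.97 in detrusor and 8.56 to 10.66 in urothelium. Of 6 fibroblast markers 2 were lower in urothelium than in detrusor, Dcn (5.32-fold, adjusted p = 0.00525 by limma) and Lum (6.95-fold, adjusted p = 0.00318). Of 3 tested mesothelial markers 2 were higher in urothelium, Upk3b and Msln. The sums were 191 to 1215 in detrusor, 2667 to 7321 in stroma and 20159 to 42050 in urothelium. The urothelium sum rests mainly on Upk3b, at log2 levels of 14.07, 15.31 and 14.74, with Msln at 10.20, 10.61 and 10.23. Wt1 was not called, and its highest array was stroma 2 (12.53). No marker of these lists was at 0 on any array, and their part in the guidance gene differences was not tested.

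Between detrusor and stroma, 3 of the 60 tested members were called, all lower in detrusor (5% of the members, against 5.84% of all genes, 3.12% higher and 2.72% lower in detrusor). At an unadjusted p under 0.05 there were 22 members, against 22.9% of all genes, and for 22 the arrays did not overlap, against 27.1%. They were Efnb2, Epha2 and Sema4a (-1.84 ± 0.47, adjusted p = 0.0459), which were also called between urothelium and detrusor, a comparison that shares the detrusor arrays. Sema4a was not called in 12 of 19 alternatives, with an adjusted p of 0.154 without stroma 3 and urothelium 3, where Efnb2 alone was called. The count was 0 without detrusor 3 (0.804% of all genes called), 1 without detrusor 1 (2.82%) or stroma 3 (3.08%), and 6 without stroma 2 (6.51%). With the mean of probe sets it was 6 (5.41%), 2 higher and 4 lower in detrusor. Efnb2, Epha2 and Sema4a were all also higher in urothelium than in detrusor. Stroma 1 and 3 carried urothelial markers, of which 2 of 8 were called lower in detrusor than in stroma. In stroma 2, where the urothelial marker median was lowest, Efnb2 was at 13.17, Epha2 at 10.89 and Sema4a at 10.30. The 2 called markers, Epcam and Cdh1, were also above detrusor in stroma 2. Epcam was at 13.14 there against 5.91 to 8.81 in detrusor, and Cdh1 at 9.94 against 6.48 to 7.89. The part of these markers in the 3 differences was not tested.

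Between urothelium and stroma, 0 of the 60 members were called by limma, and 0.23% of all genes were, 0.0612% higher and 0.168% lower in urothelium. Of the 8 urothelial markers 0 were called in this comparison either, with a median log2 difference of 2.78. A missing call here thus does not show equal levels. At an unadjusted p under 0.05 there were 22 members, 36.7%, against 19% of all genes, and for 21 the arrays did not overlap, against 23.1%. The smallest adjusted p were those of Unc5c (0.0572), Sema7a (0.0639) and Sema6c (0.0667), all lower in urothelium. Without stroma 3 the count rose to 5, 4 higher and 1 lower, and 4.04% of all genes were then called.

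The stroma arrays stood highest for a number of genes without reaching the threshold. All 3 lay above the other 6 arrays for 8 members, 5 ligands (Efna5, Efnb1, Sema4b, Sema6d and Sema7a) and 3 receptors (Dcc, Plxna3 and Plxnd1), which is 13.3% of those tested against 3.87% of all genes. With quantile normalization there were again 8 (2.7% of all genes), and with arrays centred on their medians 3, Efnb1, Plxnd1 and Sema7a (0.735%). Centring moved the median difference of all genes from -0.16 to 0.25 between detrusor and stroma and from -0.12 to 0.31 between urothelium and stroma. Sema7a, a lipid-anchored semaphorin that binds plexin C1 and integrins, was the clearest of these, at 10.22, 10.83 and 10.25 in stroma, 8.71, 8.96 and 8.21 in detrusor and 8.59, 6.97 and 8.81 in urothelium. Its stroma arrays were at least 1 log2 unit above every other array, with differences of -1.81 ± 0.53 for detrusor (adjusted p = 0.0727) and -2.31 ± 0.53 for urothelium (adjusted p = 0.0639). Of 6 fibroblast markers, with sums of 327025 to 486175 in stroma, 228165 to 316035 in detrusor and 116292 to 235530 in urothelium, 1 was called lower in urothelium than in stroma (Dcn, 9.16-fold, adjusted p = 0.0305 by limma) and 0 between detrusor and stroma. Of the other cell types in stroma, 0 of 5 tested endothelial and 0 of 4 macrophage markers were called. Their summed intensities ran from 8289 to 17662 and 7298 to 46038 in stroma, 3985 to 10241 and 4279 to 7587 in detrusor, and 1849 to 6304 and 3150 to 4181 in urothelium. For 4 tested nerve and glial markers, 0 called, the sums were 1820 to 3115, 1524 to 2332 and 724 to 1237. No marker of these 4 lists was at 0, and their part in the stroma levels was not tested.

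**Figure D4:**
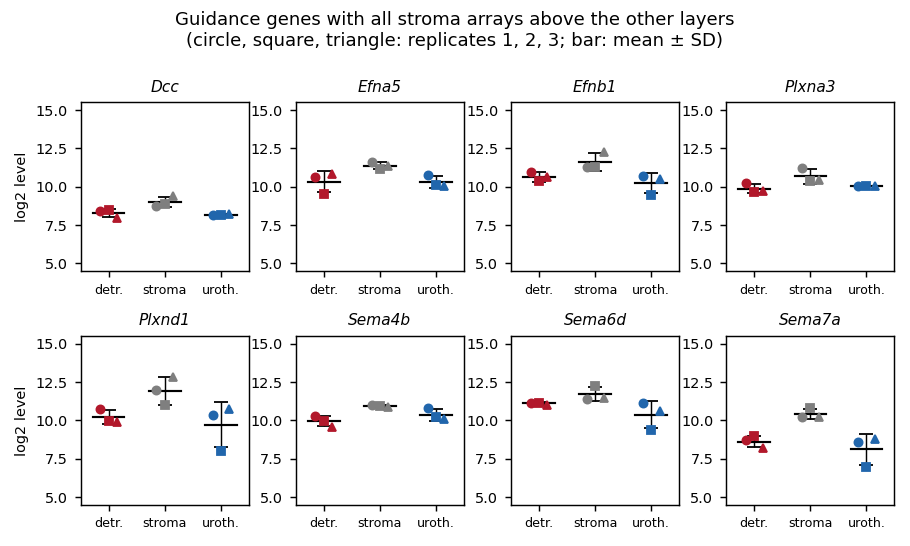
Log2 levels (vertical axis, log2(intensity + 39.31)) of the 8 guidance genes whose stroma arrays were all above the detrusor and urothelium arrays, by layer (horizontal axis), 1 point per array, with the mean and SD (n = 3). The gap is widest for Sema7a, and with arrays centred on their medians it held for Efnb1, Plxnd1 and Sema7a.

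Detrusor arrays were all above the other 6 for 4 members (8.36% of all genes), Epha3, Nrp2, Sema3a and Sema5a, and all below for 6 (7.67%), Efnb2, Epha2, Sema3b, Sema4a, Sema4d and Slit1. Urothelium arrays were all above for 4 (6.42%), Ntn4, Sema3b, Sema3e and Unc5a, and all below for 5 (6.19%), Efnb3, Ephb1, Ephb4, Ntn1 and Unc5c. No member had all stroma arrays below the rest (0 of 60, against 1.86% of all genes). By layer of the highest mean, 20 of the 60 tested members were highest in detrusor, 26 in stroma and 14 in urothelium, against 32.3%, 37.1% and 30.6% of all genes. With arrays centred on their medians the numbers were 26, 17 and 17. The 35 tested ligands were highest in detrusor, stroma and urothelium in 10, 16 and 9 cases, and the 25 tested receptors in 10, 10 and 5. Ligands and receptors known to bind each other were set side by side for 25 pairs with both genes tested. In 12 pairs ligand and receptor had their highest mean in the same layer and in 13 in different layers. Sema4d and Plxnb1, and Efna1 and Epha2, were both highest in urothelium, Sema7a and Plxnc1 in stroma, and Sema3f and Nrp2 in detrusor. In the other kind, Sema3e was highest in urothelium and Plxnd1 in stroma, Efnb2 in urothelium and Ephb4 in stroma, Ntn4 in urothelium and Unc5b in detrusor, and Efna5 in stroma and Epha3 in detrusor. With 0 members called higher in detrusor than in stroma and 0 called between urothelium and stroma, no highest layer was called above both others. For Epha2, Sema4d and Sema3f the gap to the next layer was only 0.08 to 0.09 log2 units. These orders thus describe the means only.

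**Figure D5:**
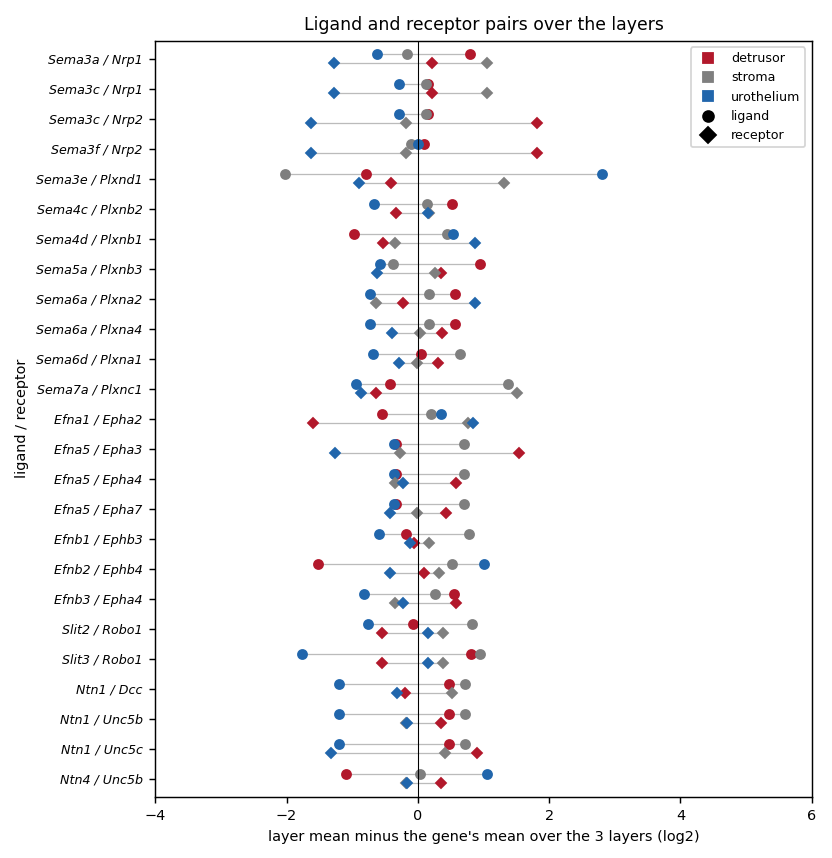
Layer means of ligand (circle) and receptor (diamond) for 25 pairs (vertical axis), each as the difference from the gene's mean over the 3 layers (horizontal axis, log2), coloured by layer. Sema3e shows the widest separation of layers and is highest in urothelium, and its receptor Plxnd1 is highest in stroma.

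Of 52 other genes of these pathways, 47 were tested. Between urothelium and detrusor 6 were called higher and 7 lower in urothelium. Higher were Tiam1, an exchange factor for Rac (8.04-fold), Flrt3, a membrane ligand of Unc5 receptors (5.19-fold), Vav3 and Vav2, exchange factors that act below Eph receptors (4.56-fold and 2.94-fold), the hepatocyte growth factor receptor gene Met (4.33-fold) and the adhesion gene L1cam (3.82-fold). Lower were Mical1, the plexin-linked oxidase of actin (11.2-fold), Rras, a small GTPase inactivated by plexins (11.0-fold), Dpysl3, a collapsin response mediator gene (7.65-fold), Flrt2 (7.08-fold), Abl1 (2.74-fold), Rgmb (2.54-fold) and Trio (1.91-fold). The median difference of the 47 was 0.02. Between detrusor and stroma Rras was higher in detrusor (log2 2.46 ± 0.38, adjusted p = 0.00801) and Tiam1 lower (log2 -3.41 ± 0.44, adjusted p = 0.00345), and between urothelium and stroma 0 were called.

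Postnatal day, tested with layer as a covariate, gave 0 called members of 60 by limma and 0 at an unadjusted p under 0.05, against 0.0153% called (0.00765% in each direction) and 5.56% at that p over all genes. Within day 1 (1 urothelium and 2 detrusor arrays) and within day 2 (2 and 1), all 15 members called between urothelium and detrusor kept their sign, with sizes of at least 1.12 and 1.24 log2 units. No test was made within a day.

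The 10 members below the filter were Epha5, Epha6, Epha8, Epha10, Ephb6, Ntn3, Ntng2, Robo2, Robo3 and Unc5d. Their brightest probe sets reached the median of their array on at most 2 of 9 arrays. Epha5 ranged from 7 to 425.1 intensity units, with its 3 stroma arrays at 425.1, 292 and 217 and the others between 7 and 200.6. Epha8 was at 347.5, 270.3 and 123.2 in stroma and between 18.2 and 70.2 elsewhere. The values carry no detection calls, so these low signals cannot be called absent.

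For a view of the regulatory sequence before the start of genes that went opposite ways, the 250 bases upstream of the RefSeq start (GRCm38.p6) are given for 4 members, Efnb2 and Epha2, higher in urothelium, and Nrp2 and Unc5c, lower. They lie at chr8:8661243-8661492 (minus strand), chr4:141300971-141301220 (plus), chr1:62703067-62703316 (plus) and chr3:141465314-141465563 (plus), and capitals mark the GC box GGGCGG on either strand, the binding site of Sp and Klf factors.
Efnb2: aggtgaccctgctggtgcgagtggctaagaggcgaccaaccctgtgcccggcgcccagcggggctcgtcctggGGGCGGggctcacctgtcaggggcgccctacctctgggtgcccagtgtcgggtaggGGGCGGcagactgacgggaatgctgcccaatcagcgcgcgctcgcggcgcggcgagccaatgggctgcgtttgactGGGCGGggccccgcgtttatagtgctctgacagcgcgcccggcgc
Epha2: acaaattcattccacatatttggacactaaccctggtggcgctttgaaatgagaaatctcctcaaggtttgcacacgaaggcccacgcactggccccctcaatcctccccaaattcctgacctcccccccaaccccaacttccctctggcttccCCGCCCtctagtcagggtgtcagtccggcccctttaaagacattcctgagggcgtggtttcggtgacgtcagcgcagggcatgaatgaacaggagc
Nrp2: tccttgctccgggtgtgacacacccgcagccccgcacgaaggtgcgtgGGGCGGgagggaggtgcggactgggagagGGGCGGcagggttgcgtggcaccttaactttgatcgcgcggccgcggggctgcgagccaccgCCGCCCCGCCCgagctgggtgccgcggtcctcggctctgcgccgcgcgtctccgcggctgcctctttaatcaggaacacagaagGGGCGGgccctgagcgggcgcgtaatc
Unc5c: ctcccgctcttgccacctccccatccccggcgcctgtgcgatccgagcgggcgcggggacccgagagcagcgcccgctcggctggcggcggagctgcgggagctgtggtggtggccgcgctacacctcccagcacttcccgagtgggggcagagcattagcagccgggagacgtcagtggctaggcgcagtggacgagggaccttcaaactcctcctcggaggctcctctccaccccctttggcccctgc
These windows held 3, 1, 5 and 0 GC boxes, and their GC content was 72.0%, 55.6%, 72.4% and 71.2%. RefSeq starts were found for 60 of the 70 members, 76 starts in all, and for 14 of the 15 called genes. A GC box was present before 54 of the 76 starts (71.1%), against 42.6% of 21255 starts of protein-coding genes, and the median GC content was 64.4% against 55.6%. Among 19 starts of the 14 called genes, with Sema4a and Sema4d counted several times, 13 had a GC box. Each matched gene called higher in urothelium had a GC box before at least 1 start. Of those called lower, Nrp2 and Slit3 had a GC box, and Epha3, Sema3a and Unc5c did not. This split was not tested. The grainyhead site AACCGGTT was found before 0 of the 76 starts (0.141% of all), the GATA site AGATAA before 3 (8.81% of all), the E-box CACGTG before 4 (6.63% of all) and the CArG box of serum response factor before 2 (1.39% of all), each searched on both strands. A match describes these letters only, and no match says only that the letters are not in this window.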

How the data were processed

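The authors deposited 1 linear intensity per probe set and array. GCOS, the scanner maker's program, is named in the submitters' processing notes, with the algorithm not given in the sources used here. RNA from each laser-captured sample was amplified in 2 rounds, per the labels. With the outer 2% of values trimmed at each end, the mean was 1500 on every array, so the arrays had been scaled before deposit. Median intensities ranged from 133.3 (urothelium 2) to 388.5 (stroma 3). The number of arrays limits the precision, with a median SE of 0.45 log2 units for a difference between layers.

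Of 45101 probe sets, 34945 had 1 gene symbol in the platform annotation (157 of them for the guidance genes, and 932 with several symbols left unnamed). Gene identifiers of 34754 of these were found in RefSeq (GRCm38.p6), and 0 symbols changed. The deposited intensities were turned here into log2(intensity + 39.31), with a pseudocount equal to their 20th percentile. A probe set was kept if it reached the array median on 3 or more of 9 arrays, and each gene was represented by its brightest probe set on average. Differences between layers were tested by limma 3.58.1 (R 4.3.3; lmFit, and eBayes with trend) in 1 fit over all arrays and genes, Benjamini-Hochberg adjusted, called at an adjusted p under 0.05. The fit was tested on simulated data with independent noise. Those data held no carry-over between layers and no shared animals, so the test does not bear on these limits.

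Genes were named with values where they were called, were the markers Sema3a, Efnb2 or Nrp1, had the largest difference of their class (12 classes), or had a layer with all arrays apart from the other 6 and at least 1 log2 unit from both other means. Genes named outside this rule were chosen after their values were seen. The members and lists were chosen with earlier results of these data known. Alternatives were quantile normalization, median centring, other pseudocounts (8.13 and 232.9), no filter or a filter on all 9 arrays, the mean of probe sets, day as a covariate, array weights and leaving out arrays. Signs within each day were added after seeing the data.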

Additional observations from a re-analysis of the deposited data

How the results depend on the processing

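Results were recomputed under 19 alternatives. Between urothelium and detrusor the count of called guidance genes (15) stayed within 1.5 times under all of them but the fit without detrusor 3, and ranged from 9 to 17 when 1 array was left out. Of the 15 genes, 8 (Efnb2, Epha1, Epha2, Nrp2, Sema3b, Sema4a, Unc5a and Unc5c) were called in every alternative that tested them, and no named difference changed sign while called. Between detrusor and stroma the count was 3 (5.84% of all genes called). It became 1 with median centring (5.61%) and 6 with the mean of probe sets (5.41%), 2 of these higher in detrusor. It was 5 with array weights (6.26%) and 1 without stroma 3 and urothelium 3 (3.28%), and ranged from 0 to 6 when 1 array was left out. Between urothelium and stroma the count of 0 (0.23%) became 1 with median centring (1.71%), 3 with the median pseudocount (2.33%), 1 with the filter on all 9 arrays (2.94%) and 2 without stroma 3 and urothelium 3 (3.37%), and ranged from 0 to 5 when 1 array was left out. The causes were not tested. By day the count was 0 in every alternative run. Of the members called between urothelium and detrusor, 8 had several probe sets passing the filter, and 0 of these had one of the opposite sign. No paired analysis was possible because the labels give no replicate numbers and no link between samples of different layers. Each sample title holds a number of its own, whose meaning is not given. The replicate numbers used here only follow the order of the samples. Low intensities limit Epha1, Ntng1, Slit3, Sema3e and Sema5b, each with arrays well below the pseudocount, and their fold changes depend on it.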
